A study of Mus musculus with 8 samples.

Results

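Chromatin accessibility was examined around 10 target genes of YAP and TAZ, the transcriptional co-activators that the Hippo kinases LATS1 and LATS2 hold in check: Ccn1, Ccn2, Ankrd1, Amotl1, Amotl2, Ajuba, Axl, Crim1, F3 and Nuak2. They are 10 of the 21755 protein-coding genes considered, and were listed as known targets; the rule of choice used no measured value, although results of these data were known when the list was made. A peak was assigned to a gene when it overlapped the gene body or lay within 20 kb of one of its annotated transcription start sites (TSSs). After the peaks of all libraries were merged, 174 of the 183173 accessible regions of the series fell in these windows. The window edge cut closest at Nuak2. There a region seen in 1 library lay inside it, with its far end 180 bp from the edge, and a region seen in 4 libraries lay 360 bp outside.

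The study asked how loss of Lats1 changes the identity of mammary tumor cells. ATAC-seq was performed on cell lines derived from mammary tumors of PyMT mice (strain label FBV/N), in which the polyoma middle T oncogene drives tumor formation, so that WT cells and the Lats1-depleted Lats1-CKO cells alike carry this oncogene. Each culture was separated by FACS into a luminal population (EpCAM-high; CD49f-high) and a basal population (EpCAM-low; CD49f-high) and was briefly expanded before the assay. There were 2 libraries in each of 4 groups, WT luminal (BM1, BM5), WT basal (BM2, BM6), Lats1-CKO luminal (BM3, BM7) and Lats1-CKO basal (BM4, BM8), and pairs of values below follow this order. The age of the mice and the Cre line are not given in the labels, and nothing in them says whether the libraries of a group came from separate cultures, so p-values measure only the spread between these libraries.

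In the Hippo pathway, active LATS kinases phosphorylate YAP and TAZ, which are then kept in the cytoplasm or degraded. When this phosphorylation is low, YAP and TAZ enter the nucleus and bind DNA through the TEAD factors, often at enhancers that also hold sites for AP-1. In mammary epithelium the pathway is known for its part in the choice between luminal and basal fates, and several of its target genes encode proteins that act back on the pathway.

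The deposited lists held between 14753 peaks (BM3) and 99022 peaks (BM8), and BM3 stood apart: the next shortest list, BM6, had 51497. Since the lists carry no read counts, the depth of each library is unknown, and the tests below are given with and without BM3. The authors left 1 Lats1-CKO luminal replicate out of their merged data because of quality control, and their text does not name it. Scores were placed on a common scale as the percentile of a peak among all peaks of its own library, in which 50 is the middle peak and 0 stands for no peak. A promoter peak was taken to be one within 1 kb of any annotated TSS of the gene. Of 10 luminal markers, 10 and 9 had a promoter peak in WT luminal libraries, 9 and 7 in WT basal, 5 and 9 in Lats1-CKO luminal, and 5 and 4 in Lats1-CKO basal. Of 10 basal markers, the counts were 6 and 6, 6 and 6, 4 and 7, and 7 and 5, so this list did not separate the sorted populations, and Trp63 had none in any library. For 10 fibroblast markers the counts were 2 and 3, 5 and 3, 0 and 2, and 7 and 6. The summed percentile of this list was 173 to 175 in WT basal and 297 to 356 in Lats1-CKO basal libraries, with Col3a1 and Lum at 0 in all of them, and its part in the results on the target genes was not tested. Sums over 8 immune markers were 224 to 241 in WT luminal and 69.9 to 218 in WT basal libraries. They were 0 to 200 in Lats1-CKO luminal and 279 to 309 in Lats1-CKO basal libraries, with Cd3e, Adgre1 and Itgam at 0 throughout. Sums over 8 genes of absent tissues were 24.8 to 68.8 in WT basal and 81.6 to 83.8 in Lats1-CKO basal libraries, all from Gfap. The targeted gene itself, Lats1, had a promoter peak at percentiles 57.6 and 62.4, 53.6 and 57.8, 0 and 75.2, and 81.5 and 74.7. A promoter peak is not lost when exons are deleted, so these values neither bear out nor contradict the genotype labels.

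The sequences below are the promoters of Ccn1 and Ankrd1 and the regions chosen by rule, over 1 kb from a TSS, that held the TEAD core GGAATG in their centre. Other regions described below also had the core in the 300 bp about their centre and are not printed. They are the promoter regions of Amotl2, Nuak2 and Crim1 and an intronic region of Ccn1. To these add the Ccn2 regions 14084 and 5888 bp upstream and an intronic region of Amotl1 (chr9:14588688-14589079). The Ccn2 promoter was planned to be printed as well and was left out. The printed sequences were read from the GRCm38.p6 assembly on the strand of the gene, with the core, or its reverse complement CATTCC, in capitals. The first is the 200 bases before the TSS of Ccn1 (chr3:145649982-145650181, minus strand), where the core began 107 bases before the TSS.
Ccn1 promoter: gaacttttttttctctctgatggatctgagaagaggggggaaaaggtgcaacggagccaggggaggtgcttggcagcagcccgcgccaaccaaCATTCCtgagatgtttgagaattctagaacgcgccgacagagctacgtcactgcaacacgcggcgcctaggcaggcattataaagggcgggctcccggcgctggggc
Next are the 200 bases before the TSS of Ankrd1 (chr19:36120100-36120299, minus strand), which held no core although the centre of the whole promoter region (chr19:36119871-36120223) held 2, and the strongest Ankrd1 region, 9219 bp upstream of the TSS (chr19:36129318-36129568, minus strand).
Ankrd1 promoter: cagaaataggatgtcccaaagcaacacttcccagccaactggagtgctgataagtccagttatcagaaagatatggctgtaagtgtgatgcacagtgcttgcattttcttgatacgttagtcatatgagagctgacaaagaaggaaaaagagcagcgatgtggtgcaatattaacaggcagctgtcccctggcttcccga
Ankrd1 upstream region: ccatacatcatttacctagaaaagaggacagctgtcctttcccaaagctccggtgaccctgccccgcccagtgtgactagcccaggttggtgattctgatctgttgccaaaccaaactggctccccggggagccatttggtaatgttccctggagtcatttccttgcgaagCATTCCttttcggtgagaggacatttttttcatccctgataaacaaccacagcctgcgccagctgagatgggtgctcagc
The centre of the strongest region of any target gene lay past the 3′ end of Amotl2 (chr9:102737368-102737667, plus strand).
Amotl2 downstream region: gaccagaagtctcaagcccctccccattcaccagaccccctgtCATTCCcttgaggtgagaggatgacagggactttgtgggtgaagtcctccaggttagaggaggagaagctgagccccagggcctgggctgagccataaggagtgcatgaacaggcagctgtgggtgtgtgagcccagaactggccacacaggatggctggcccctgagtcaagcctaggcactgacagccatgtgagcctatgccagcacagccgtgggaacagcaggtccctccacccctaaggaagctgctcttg
The last 2 are from regions with a peak in 3 Lats1-CKO libraries and in no WT library, in an intron of Crim1 (chr17:78298258-78298424, plus strand) and just past the 3′ end of Nuak2 (chr1:132333719-132334018, plus strand).
Crim1 intronic region: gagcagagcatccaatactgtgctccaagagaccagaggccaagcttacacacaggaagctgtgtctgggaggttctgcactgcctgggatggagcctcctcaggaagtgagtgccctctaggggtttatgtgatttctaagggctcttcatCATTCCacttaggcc
Nuak2 downstream region: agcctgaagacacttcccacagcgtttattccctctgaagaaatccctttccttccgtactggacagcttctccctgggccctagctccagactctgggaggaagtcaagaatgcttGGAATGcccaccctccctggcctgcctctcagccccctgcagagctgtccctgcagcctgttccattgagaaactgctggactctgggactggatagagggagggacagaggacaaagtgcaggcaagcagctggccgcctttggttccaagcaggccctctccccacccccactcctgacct

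Ccn1 (ENSMUSG00000028195, chr3:145646976-145649981, minus strand) and Ccn2 (ENSMUSG00000019997, chr10:24595442-24598683, plus strand) encode secreted matricellular proteins and are among the most widely used readouts of YAP and TAZ activity. In the window of Ccn1, the WT luminal libraries had 9 and 9 peaks, the WT basal 10 and 7, the Lats1-CKO luminal 3 and 10, and the Lats1-CKO basal 6 and 10. The genotypes overlapped, with a mean of 8.75 ± 1.26 peaks (SD, n = 4) for WT, against 7.25 ± 3.40 (SD, n = 4) for Lats1-CKO libraries, or 8.67 ± 2.31 (SD, n = 3) without BM3. The Ccn1 promoter was open in every library other than BM3, at percentiles 69.7 and 85.8, 69.6 and 43.4, 0 and 84.8, and 68.6 and 78.2. In all 7 of these libraries the peak contained the TEAD core printed above. A region 3252 bp upstream was the only Ccn1 region with a peak in all 8 libraries, at 19.6 to 78.1. A region 16328 bp upstream had AP-1 motifs and no TEAD core in its centre. It stood at 85.2 and 89.5 in WT luminal and 77.5 and 22.5 in WT basal libraries. In Lats1-CKO luminal libraries it was at 24.3 and 63.2, and neither Lats1-CKO basal library had a peak there. Its neighbour 13387 bp upstream, with an AP-1 motif in the 300 bp about its centre, ran the other way. That region was at 57.0 in BM4, 32.2 in BM7 and 78.7 in BM8, and among WT libraries only BM6 had a peak, at 34.7.

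Ccn2 gave 5 and 4 peaks in WT luminal libraries, 5 and 3 in WT basal, 0 and 5 in Lats1-CKO luminal, and 3 and 5 in Lats1-CKO basal. Its highest promoter percentiles were 40.4 and 52.2, 65.7 and 65.4, 0 and 77.6, and 71.9 and 81.9. The 3 Lats1-CKO libraries other than BM3 thus lay above all 4 WT libraries, as they did for 10.3% of the 14571 genes with a promoter peak in any library, with means of 77.1 ± 5.02 (SD, n = 3) and 55.9 ± 12.1 (SD, n = 4). In limma the difference without BM3 was 19.3 ± 6.08 (SE) percentile points, with an adjusted p of 0.476, and with all 8 libraries it was 1.90 ± 16.5 (SE) with an adjusted p of 1.00. One upstream region, 14084 bp before the Ccn2 TSS, had a peak in 4 of 4 WT libraries, at 18.9 to 60.8. It had a peak in 1 of 4 Lats1-CKO libraries (BM4), at 32.7. The other upstream regions shared no order. The region at 5888 bp had a peak in 2 WT and 1 Lats1-CKO libraries, and that at 2802 bp in 1 and 1. Those at 5485 and 4066 bp had a peak in 1 and 2 Lats1-CKO libraries and in no WT library.

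Ankrd1 (ENSMUSG00000024803, chr19:36111961-36120099, minus strand) encodes an ankyrin-repeat protein of the sarcomere and nucleus and had the fewest regions of all 10 genes, 8. It had 3 and 2 peaks in WT luminal, 4 and 3 in WT basal, 1 and 4 in Lats1-CKO luminal, and 4 and 5 in Lats1-CKO basal libraries. The promoter and the upstream region printed above were the Ankrd1 regions found in most libraries. The promoter stood at 84.2 and 84.1, 77.5 and 76.5, 0 and 55.7, and 82.0 and 41.5, so that BM7 and BM8 were below every WT library and BM4 was among them. The difference, −35.8 ± 16.3 (SE) percentile points in limma, was the lowest of the 10 genes and did not pass the test (adjusted p = 1.00). Without BM3 it was −20.6 ± 10.4 (SE), with an adjusted p of 0.596. The upstream region had a peak in all 8 libraries, at 77.5 and 71.9, 86.7 and 55.8, 33.8 and 77.5, and 64.0 and 75.4, and each of these peaks contained its TEAD core.

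**Figure D1:**
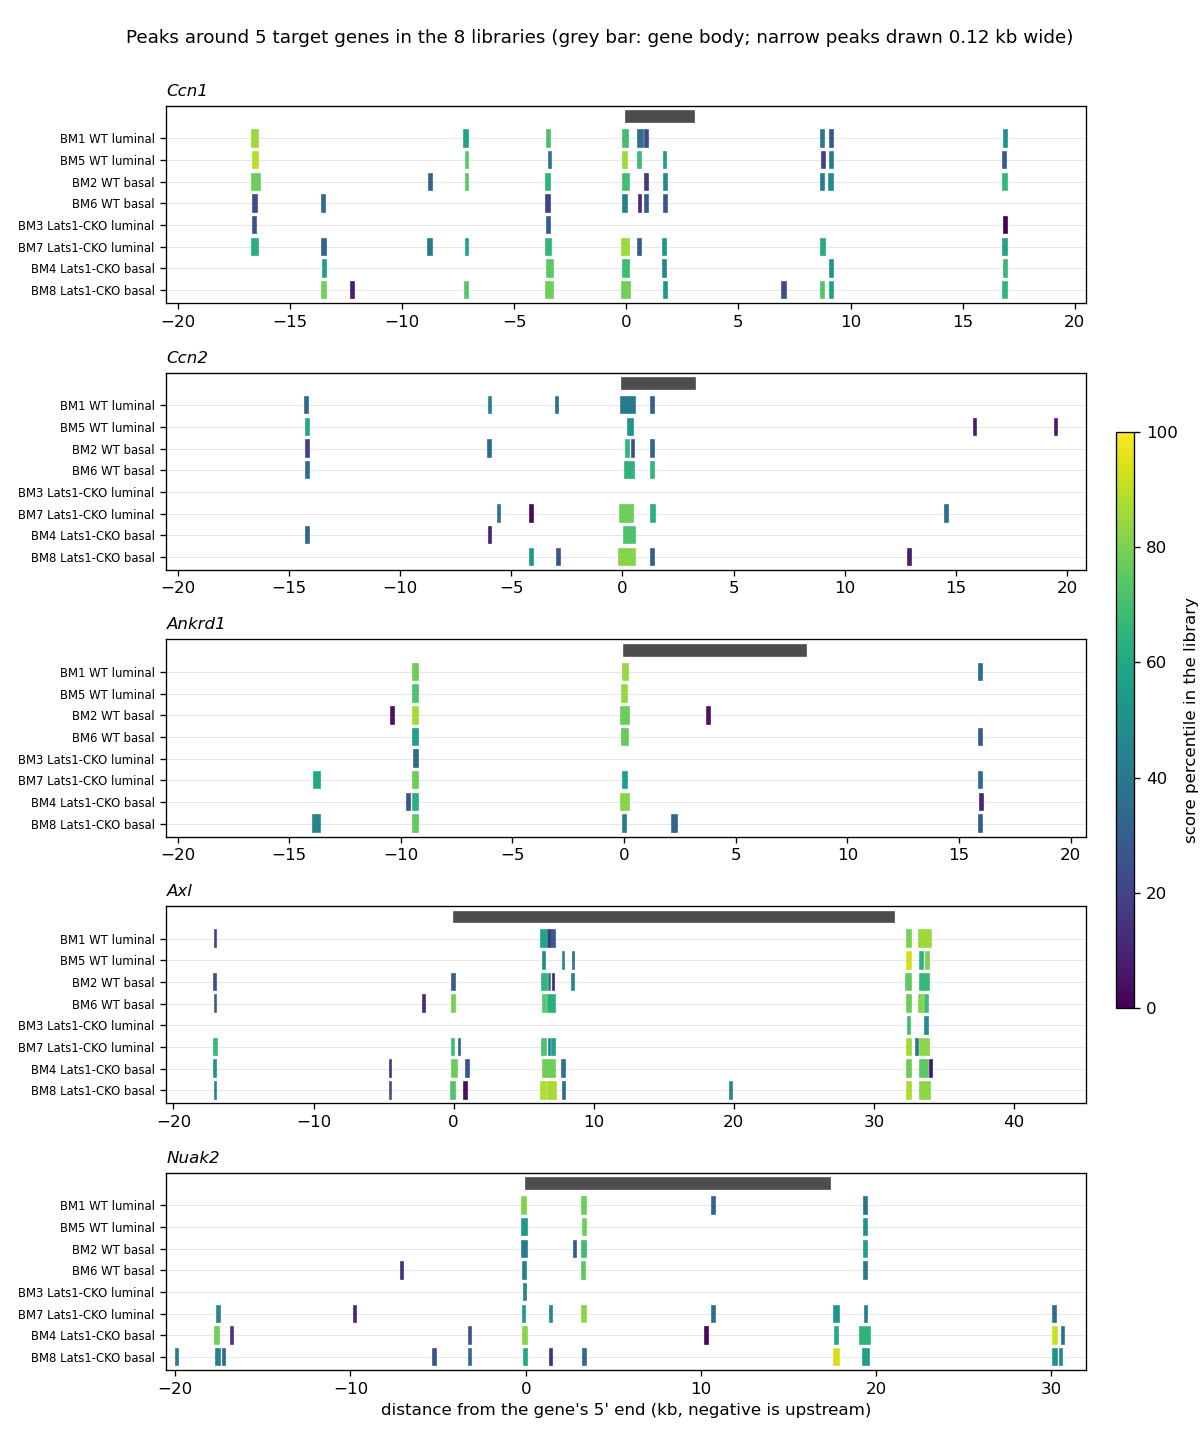
Peaks in the windows of 5 target genes, with 1 row per library and distance from the 5′ end of the gene in kb on the x axis (negative is upstream). Colour gives the score percentile of the peak in its library and the grey bar the gene body. The promoters of Ccn1, Ccn2 and Ankrd1 have a peak in every row other than BM3, that of Axl has none in the WT luminal rows, and Nuak2 has 2 downstream positions with a peak in BM4, BM7 and BM8 and none in the WT rows, beside 1 that has a peak in every row other than BM3.

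Amotl1, Amotl2 and Ajuba encode proteins that act on the pathway itself: the angiomotin-like proteins bind YAP and hold it at cell junctions, and the LIM protein AJUBA binds LATS kinases. Amotl1 (ENSMUSG00000013076, chr9:14541966-14645056, minus strand) gave 12 and 10, 11 and 9, 2 and 16, and 18 and 13 peaks. Its highest TSS percentiles were 96.9 and 92.2, 93.7 and 90.3, 13.9 and 99.3, and 60.7 and 97.8, the highest of the 10 genes in 6 of the 8 libraries. The peak behind most of these values overlapped an intron next to an internal TSS (chr9:14559411-14559839) and held an AP-1 motif. A second intronic region (chr9:14604308-14604658), also with an AP-1 motif, was at 68.8 to 96.5 in all 8 libraries.

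Amotl2 (ENSMUSG00000032531, chr9:102716672-102733418, plus strand) had 9 and 8, 10 and 7, 3 and 11, and 11 and 11 peaks, with TSS percentiles of 84.6 and 58.4, 82.3 and 82.3, 41.0 and 90.1, and 80.5 and 91.8. The region printed above, 6565 bp from the nearest Amotl2 TSS and beyond the end of the gene, held both a TEAD core and an AP-1 motif and reached 95.7 and 97.2, 98.6 and 93.8, 92.1 and 99.1, and 98.2 and 99.4. No other region of the 10 windows had a higher mean percentile over the 8 libraries. The TEAD core fell inside the called peak in BM4, BM7 and BM8 only, the libraries with the longest lists. In the other libraries the region had a peak too, but its called extent ended short of the core. The median width of all called peaks was 147, 152 and 157 bp in BM4, BM7 and BM8. It was 152 and 156 bp in BM1 and BM2, 116 and 143 bp in BM5 and BM6, and 138 bp in BM3. The part of peak width here was not tested. Ajuba (ENSMUSG00000022178, chr14:54567472-54577558, minus strand) gave 9 and 3, 7 and 5, 1 and 9, and 9 and 10 peaks and TSS percentiles of 64.9 and 34.7, 61.9 and 73.6, 0 and 59.7, and 72.4 and 83.1. The strongest region in its window lay at a TSS of the neighbouring gene Haus4 and cannot be assigned to either gene.

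Nuak2 (ENSMUSG00000009772, chr1:132316126-132333488, plus strand) encodes a kinase of the AMPK family that has been described as a feedback activator of YAP. It showed the widest separation of peak numbers among the 10 genes: 4 and 3 peaks in WT luminal, 4 and 4 in WT basal, 1 and 9 in Lats1-CKO luminal, and 9 and 12 in Lats1-CKO basal libraries. Without BM3 the counts were 10 ± 1.73 (SD, n = 3) in Lats1-CKO and 3.75 ± 0.5 (SD, n = 4) in WT libraries, or 1.07 ± 0.127 and 0.601 ± 0.119 per 10000 peaks of the library. The promoter did not follow this pattern, with percentiles of 81.2 and 54.0, 41.6 and 42.8, 46.0 and 54.4, and 82.1 and 60.0. Unlike Ccn1, Ccn2, Ankrd1, Ajuba and Axl, the gene had a promoter peak in BM3 too.

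Of the 12 Nuak2 regions with a peak in Lats1-CKO libraries alone, 3 had a peak in each of BM4, BM7 and BM8, and the others in 1 or 2 of them. One was the region printed above, just past the 3′ end, where BM7, BM4 and BM8 stood at 53.5, 61.3 and 93.4, and where the TEAD core was inside the peak in each of the 3 libraries. Another (chr1:132346190-132346445) lay further downstream, had an AP-1 motif in the 300 bp about its centre and stood at 35.4, 91.8 and 50.2. The last (chr1:132298404-132298708), at 47.2, 78.2 and 43.6, was at the TSS of the neighbouring gene Klhdc8a. An intronic region 3155 bp from the nearest Nuak2 TSS ran against these: it was at 68.8 to 77.8 in all 4 WT libraries, at 82.7 in BM7 and 34.4 in BM8, and had no peak in BM3 or BM4.

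Axl, Crim1 and F3 encode proteins of the cell surface. Axl (ENSMUSG00000002602, chr7:25757273-25788705, minus strand) is a receptor tyrosine kinase associated with mesenchymal features. Its window had 6 and 6, 8 and 8, 2 and 9, and 9 and 10 peaks. The Axl promoter had no peak in either WT luminal library, percentiles of 29.3 and 79.2 in WT basal, 0 and 68.9 in Lats1-CKO luminal, and 77.5 and 72.3 in Lats1-CKO basal libraries. WT libraries thus spanned the whole range, and the difference of 27.6 ± 17.5 (SE) percentile points did not pass the test (adjusted p = 1.00). It was 40.0 ± 16.1 (SE) without BM3, with an adjusted p of 0.533, and 12.4 without BM7. The strongest regions of the window (chr7:25756037-25756379 and chr7:25754614-25755516) lay past the 3′ end of Axl, the second at a TSS of Hnrnpul1, and had a peak in all 8 libraries.

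Crim1 (ENSMUSG00000024074, chr17:78200248-78376592, plus strand), which encodes a transmembrane protein that binds BMPs, has the longest window of the 10 genes, 196 kb, and the most regions, 36. It gave 13 and 9, 12 and 7, 1 and 18, and 16 and 21 peaks, and promoter percentiles of 49.0 and 56.8, 60.6 and 39.8, 0.410 and 58.3, and 60.1 and 59.6. Of its regions, 30 were intronic and none had a peak in all 8 libraries. A peak in BM4, BM7 and BM8 and in no WT library was found at 2 of them. One of these, printed above, stood at percentiles of 32.2 in BM7, 28.8 in BM4 and 54.8 in BM8. Its TEAD core was inside the peak in BM7 and BM8 only. F3 (ENSMUSG00000028128, chr3:121723537-121735048, plus strand), tissue factor, the initiator of the extrinsic coagulation cascade, had 3 and 3, 5 and 5, 2 and 7, and 5 and 10 peaks. Its promoter held an AP-1 motif and stood at 89.6 and 86.1, 69.4 and 47.6, 32.7 and 75.7, and 74.6 and 48.7. Both WT luminal values were above both WT basal values, but the Lats1-CKO populations overlapped. How many of all genes separate the WT populations in this way was not counted.

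**Figure D2:**
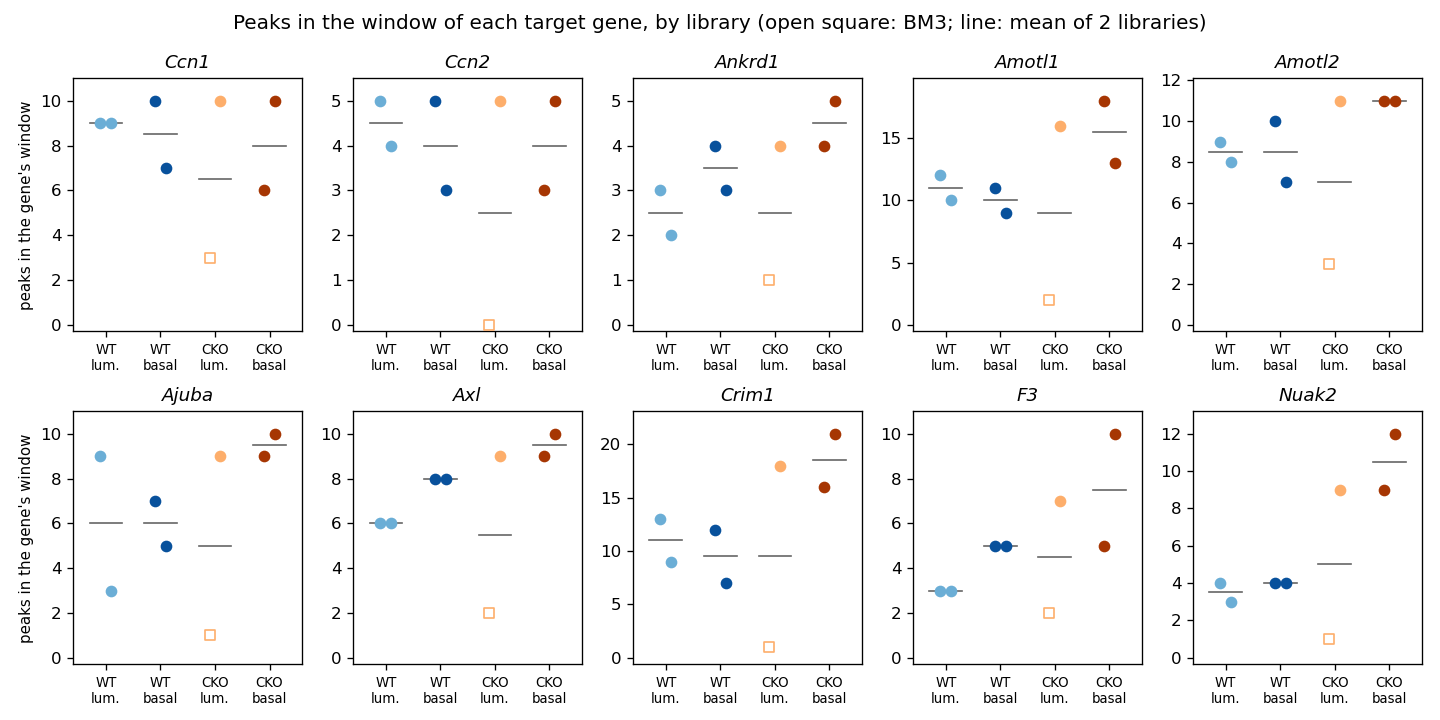
Number of peaks in the window of each target gene (y axis, each panel with its own scale from 0), by group on the x axis. Each point is 1 library, the line is the mean of the 2 libraries of a group, and the open square is BM3, which is the lowest point in every panel. Amotl1, Amotl2, Axl, Crim1 and Nuak2 show the 3 other Lats1-CKO libraries above all WT libraries.

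**Figure D3:**
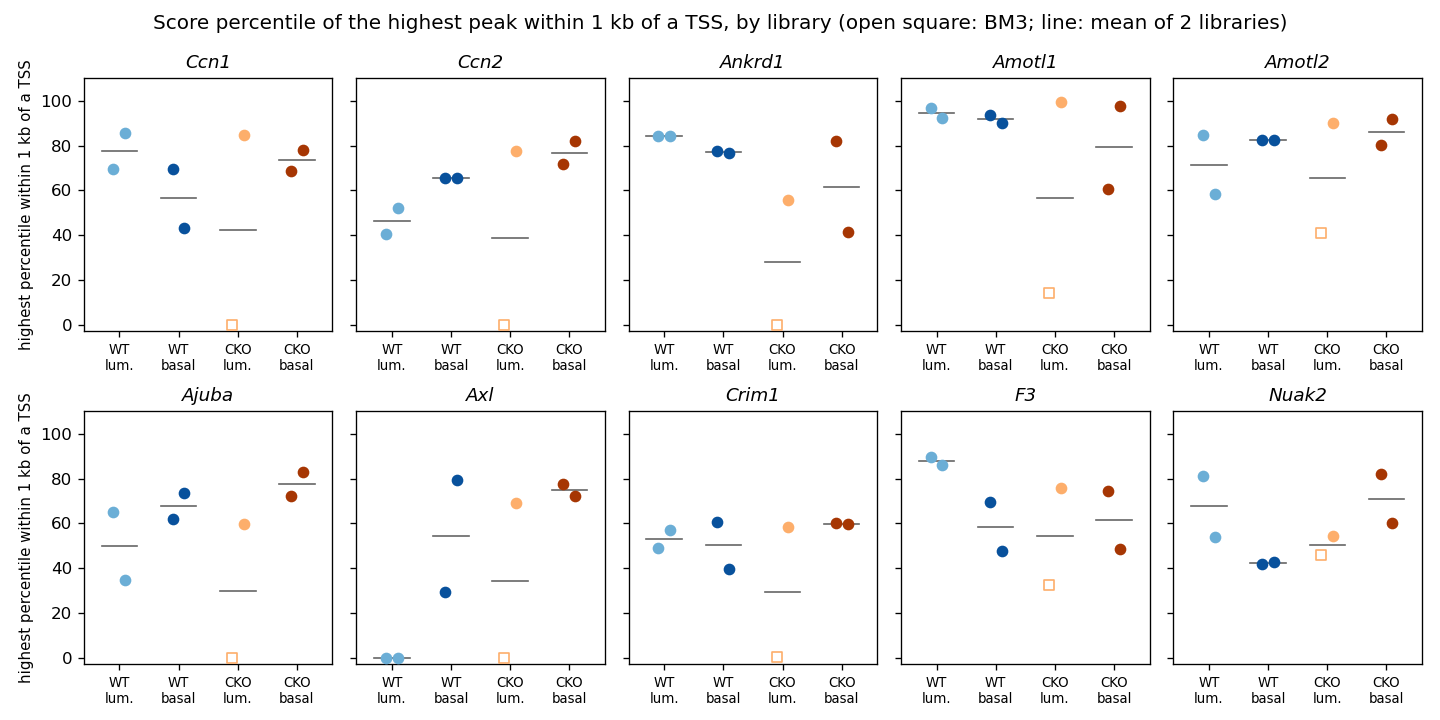
Score percentile of the highest peak within 1 kb of a TSS of each target gene (y axis, 0 where there is no peak), by group on the x axis, with points, lines and the open square as for peak number. The percentile is relative to all peaks of the same library. BM3 has no promoter peak for Ccn1, Ccn2, Ankrd1, Ajuba and Axl, and Axl lacks one in both WT luminal libraries as well.

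Whether the number of peaks differed between genotypes was tested with limma on log2(peaks + 1), with population as a covariate, across all genes. At an adjusted p below 0.05, 0 of the 10 target genes were called, against 0 of 19295 genes tested (0%), of which 245 had an unadjusted p below 0.05. Every target gene had an adjusted p of 1.00, and the differences on the log2 scale ran from −0.58 ± 0.57 (SE) for Ccn2 to 0.59 ± 0.52 (SE) for Nuak2, with 4 above and 6 below 0. The median over the 10 genes was −0.03 and that over all genes 0. For the promoter percentile the outcome was the same, with 0 of 10 and 0 of 14571 genes called (0%), 344 of the latter with an unadjusted p below 0.05, and a median difference of −5.95 points for the target genes and −1.28 for all genes. Without BM3 both medians changed sign, to 9.84 points for the target genes, 7 of which were above 0, and 5.02 for all genes, with 0 of the target genes called. The interaction of genotype with population, which asks whether the genotype difference differs between luminal and basal cells, was called for 0 genes in either measure, with 417 and 390 genes at an unadjusted p below 0.05.

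These tests leaned on BM3. When libraries were weighted by their fit (limma array weights), BM3 received a weight of 0.0583 and 208 of the 19295 genes were called with more peaks in Lats1-CKO libraries (1.08%), Nuak2 among them (1.14 ± 0.20 on the log2 scale, adjusted p = 0.0412). No other target gene was called, the next being F3 (0.76 ± 0.23, adjusted p = 0.0987). When BM3 was left out altogether 0 of 19295 genes were called (0%), although 4280 had an unadjusted p below 0.05, and the median difference of all genes moved to 0.37. Against that shift, the target genes had a median of 0.47 and Nuak2 had 1.18 ± 0.16 (adjusted p = 0.101). List length entered these values. Per 10000 peaks of the library and without BM3, the limma difference of Nuak2 was 0.68 (adjusted p = 0.503). With each list cut to its 50000 highest-scoring peaks and without BM3 it was 0.35 (adjusted p = 0.574). In the 5 kb window, with all 8 libraries, it was 0.12.

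The 3 remaining Lats1-CKO lists were also longer than all 4 WT lists, and this moved with peak number at most genes. The target genes had a median of 5 to 7.5 peaks in WT libraries, against 3 for all genes tested. In BM4, BM7 and BM8 their median was 9 to 10, against 4. The part of these higher counts in the shares that follow was not tested. Amotl1, Amotl2, Axl, Crim1 and Nuak2, 5 of 10 genes, had more peaks in each of BM4, BM7 and BM8 than in every WT library, as did 14.1% of the 19295 genes tested. Per 10000 peaks of the library this held for Crim1 and Nuak2 only, against 3.94% of all genes, while Ccn1 and Ccn2 had fewer in each of the 3 libraries than in every WT library, against 7.75% of all genes. For the promoter percentile Ccn2 alone was higher in all 3, and no target gene was lower in all 3, against 0.789% of genes. The total over the 10 windows, 57 to 76 peaks in WT and 90 to 107 in BM4, BM7 and BM8, scaled with the length of the lists: it came to 9.70 to 11.3 peaks per 10000 in WT libraries and 10.4 to 10.8 in the 4 Lats1-CKO libraries, BM3 included. The groups therefore overlapped once list length was accounted for.

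**Figure D4:**
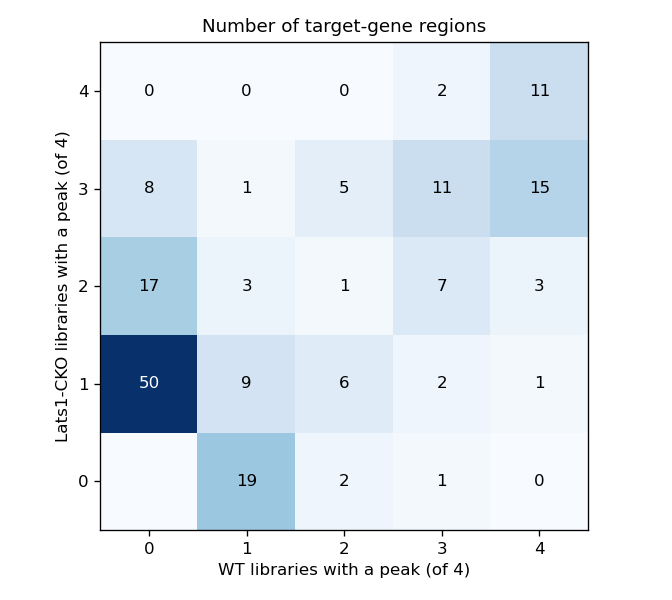
Number of the 174 target-gene regions by how many of the 4 WT libraries (x axis) and of the 4 Lats1-CKO libraries (y axis) had a peak there. The largest single cell is 50 regions found in 1 Lats1-CKO library alone; 11 regions were found in all 8 libraries, and 8 in 3 Lats1-CKO libraries and no WT library.

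By region, 69 of the 174 (39.7%) were seen in 1 library and 11 (6.32%) in all 8, close to the 44.5% and 5.95% of all 183173 regions. Regions with a peak in Lats1-CKO libraries alone numbered 75 (43.1%, against 39.2% of all regions), and those with a peak in WT libraries alone 22 (12.6%, against 16.5%). A peak in at least 3 Lats1-CKO libraries and no WT library was found at 8 of the 174 regions (4.60%), against 1.51% of all regions. These were the 3 at Nuak2, 2 in introns of Crim1, 2 in introns of Amotl1 and 1 in Amotl2, and at all 8 the libraries were BM4, BM7 and BM8. Their percentiles were 1.23 to 57.2 at the 5 regions of Amotl1, Amotl2 and Crim1 and 35.4 to 93.4 at those of Nuak2. The reverse, a peak in at least 3 WT and no Lats1-CKO library, was found once, in an intron of Ccn1 (chr3:145649059-145649146, at 22.8 in BM1, 15.7 in BM2 and 28.4 in BM6), against 0.658% of all regions. When each list was cut to its 50000 highest-scoring peaks, which BM3 does not reach, the region past the 3′ end of Nuak2 was the 1 region that met this rule, against 0.29% of all regions. With the 10000 highest-scoring peaks, at which all lists had the same length, none of the 8 met it; 1 other region did, in an intron of Amotl1 (chr9:14588688-14589079), against 0.0928% of all regions. That Amotl1 region had a peak in all 4 WT libraries when the whole lists were used.

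The sites of the target-gene regions were also read from their sequence. The stretch read was the 300 bp about the centre of a region, whatever its width. In a narrower region a match can therefore lie outside it, and close neighbours can share a site. The TEAD core GGAATG, on either strand of this stretch, was present in 49 of 174 regions (28.2%) and in 21.0% of all regions, and among regions with a peak in at least 4 libraries in 21 of 59 (35.6%) and in 20.7% of all. The AP-1 motif TGANTCA, where N is any base, was present in 44 (25.3%) and in 29.5% of all, and both motifs, which can overlap by the letters TG, in 12 (6.90%) and in 6.45% of all. In the 200 bases before the TSS, GGAATG was present in 10.1% of the 32817 RefSeq promoters (GRCm38.p6) searched. A match of these letters says nothing of whether a factor was bound.

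The other genes of the published YAP and TAZ signature from which most of the 10 are drawn were followed in the same way. Of these 14 genes, 0 were called in either measure. For peak number 13 had a difference above 0 and 1 below, with a median of 0.16, and for the promoter percentile 10 were above and 4 below, with a median of 11.3 points. Without BM3 all 14 were above 0 for peak number, with a median of 0.62 against 0.37 for all genes, the promoter median was 13.7 points against 5.02 for all genes, and 0 were called. The 3 with the widest differences in peak number were Fjx1, which encodes a secreted Golgi protein, the RNA-binding protein gene Rbms3 and the forkhead factor gene Foxf2. Fjx1 had 1 and 0 peaks in WT luminal, 2 and 0 in WT basal, 0 and 5 in Lats1-CKO luminal, and 4 and 3 in Lats1-CKO basal libraries. Rbms3, with a window of 1077 kb, had 11 and 4, 8 and 4, 0 and 30, and 36 and 19 peaks.

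At promoters the widest differences in this list were those of Rbms3, Foxf2 and Myof, the gene of the membrane-repair protein myoferlin. Foxf2 had no promoter peak in any WT library or BM3, and percentiles of 47.6, 27.8 and 48.1 in BM7, BM4 and BM8. Rbms3 stood at 34.5 in BM1, at 0 in the other 3 WT libraries and BM3, and at 66.1, 86.2 and 66.4 in BM7, BM4 and BM8. Myof was at 13.7 in BM6, at 0 in the other WT libraries and BM3, and at 3.97, 46.9 and 57.2 in BM7, BM4 and BM8. The fibroblast marker list, given above, summed to 118 in BM7, 356 in BM4 and 297 in BM8, and to 101 to 175 in WT libraries. Its part in these differences was not tested. Foxf2 was called with array weights (43.7 ± 5.39 points, adjusted p = 0.0451), as were 0.302% of the 14571 genes in that direction. With array weights none of the 10 target genes was called at its promoter. A promoter peak was present for 9 to 10 of the 10 target genes in every library other than BM3, where it was present for 5, while over all protein-coding genes the share was 50.9% to 59.3%, and 34.6% in BM3.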

How the data were processed

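ATAC-seq libraries of sorted WT and Lats1-CKO PyMT tumor cells were processed by the authors: reads were trimmed (cutadapt) and uniquely aligned to mm10 (Bowtie 1.0.0), mitochondrial and duplicate reads (Picard 2.3.0) and long fragments were removed, peaks were called per library (MACS2 2.1.1.20160309 per the labels; the methods text names another version) and blacklisted regions were dropped. The deposited score of each peak, a whole number of at least 13, was taken to be that of MACS2 and is not normalized between libraries. The lists hold no read counts, so the authors' comparison of reads could not be repeated. When merging replicates, the authors discarded 1 Lats1-CKO luminal replicate, not named, because of quality control. All 8 libraries were kept here, among them BM3, the Lats1-CKO luminal library with the fewest peaks.

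The score was converted to a percentile within the library, a tied peak being counted midway. TSSs were those of GENCODE M21, and regions were peaks of all libraries merged at an overlap of 1 bp. limma 3.58.1 (R 4.3.3) was fitted across all genes with a peak, with Benjamini-Hochberg adjustment (threshold 0.05, two-sided), and tested on simulated data. The computation used python 3.11.15, numpy 2.4.6 and pandas 2.3.3.

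The target genes and lists were chosen with earlier results of these data known. The rule named all 10 target genes, Lats1, the 3 signature genes with the largest absolute difference in each comparison, and per target gene the region and the promoter region with the highest mean percentile and regions with a peak in at least 3 libraries of 1 genotype and none of the other. Values of further regions of Ccn1, Ccn2, Nuak2 and Axl were chosen after they were seen, as were the comparisons without BM3 per 10000 peaks. Endothelial markers (of 6) and genes of absent tissues (of 8) had a promoter peak in 0 to 2 cases per library.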

Additional observations from a re-analysis of the deposited data

How the results depend on the processing

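No paired analysis was possible because the labels give no replicate numbers that the groups share. With 4 libraries per genotype, an exact permutation test on peak number could call a gene only if most genes reached its smallest possible p. Its 0 calls therefore say nothing of a difference. Calls on peak number between genotypes were 0 as reported and with each library left out. They were also 0 with peaks per 10000, windows of 5 or 50 kb, a pseudocount of 0.5, or a peak in at least 4 libraries. They were 17 with the 10000 and 3 with the 50000 highest-scoring peaks, 1 with no filter on genes, 215 with array weights, and, in settings added after the data were seen, 1 per 10000 peaks without BM3 and 40 with the 50000 highest-scoring peaks without BM3. For the TSS percentile the calls were 11 with the 50000 highest-scoring peaks, 48 with array weights, 5 with the 50000 highest-scoring peaks without BM3, and 0 to 4 with a library left out (4 without BM3 and 1 without BM7). The interaction had 266 calls for peak number with the 10000 highest-scoring peaks. With a library left out it had 0 to 4668 calls for peak number and 0 to 2787 for the TSS percentile, the upper values without BM7, when BM3 is the lone Lats1-CKO luminal library and is assumed to vary like the other groups; without BM8 the TSS percentile gave 66. Apart from array weights and the library left out, the cause was not tested.

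No target gene other than Nuak2 was called for peak number in any setting, and most differences were too close to 0 to keep their sign. On the log2 scale, array weights turned Ccn1 (0.013), Ccn2 (0.013), Amotl1 (0.46), Amotl2 (0.29), Axl (0.37) and Crim1 (0.70) to above 0. The 10000 highest-scoring peaks turned Ankrd1 (−0.25), Amotl1 (0.30), Amotl2 (0.25), Crim1 (0.75) and Fjx1 (−0.25), and the 50000 highest-scoring peaks Ankrd1 (−0.40), Ajuba (−0.30) and Nuak2 (−0.038). The 5 kb window turned Ankrd1 (−0.25), Ajuba (−0.18) and Crim1 (0.037), the 50 kb window Ajuba (−0.013), Axl (0.0029), Crim1 (0.061) and Nuak2 (−0.084), and peaks per 10000 Amotl2 (0.017). Per 10000 and without BM3, Ankrd1 (−0.062), Amotl1 (0.014) and Crim1 (0.29) turned, and with the 50000 highest-scoring peaks without BM3 Ankrd1 (−0.22), Amotl1 (0.12), Amotl2 (0.078), Axl (0.063) and Crim1 (0.29). With a library left out the ranges were −0.98 to 0.053 for Ccn2, −0.14 to 0.39 for Ankrd1, −0.45 to 0.55 for Amotl1, −0.29 to 0.35 for Amotl2, −0.31 to 0.62 for Ajuba, −0.36 to 0.34 for Axl, −0.47 to 0.83 for Crim1 and −1.32 to 0.068 for Lats1, and without a change of sign −0.59 to −0.0028 for Ccn1, 0.096 to 0.66 for F3 and 0.25 to 1.18 for Nuak2, the upper values without BM3.

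TSS percentile differences turned with array weights for Ccn1 (13.2 points), Amotl2 (9.48), Ajuba (8.83), Crim1 (7.46) and Lats1 (18.6), with the 10000 highest-scoring peaks for Amotl2 (7.71), with the 50000 highest-scoring peaks for Nuak2 (−6.67), within 5 kb of a TSS for Axl (−3.35) and Nuak2 (−7.90), and with the 50000 highest-scoring peaks without BM3 for Ccn1 (1.94), Amotl2 (4.84), Nuak2 (−8.48) and Lats1 (10.7). With a library left out they ranged from −21.0 to 12.97 for Ccn1, −11.7 to 19.3 for Ccn2, −9.88 to 9.75 for Amotl2, −13.9 to 9.94 for Ajuba, −15.2 to 7.99 for Crim1, −3.31 to 15.8 for Nuak2 and −10.6 to 19.5 for Lats1, and without a change of sign from −48.0 to −20.6 for Ankrd1, −39.9 to −5.78 for Amotl1, −24.1 to −2.99 for F3 and 12.4 to 40.0 for Axl. As reported, 5 target genes, against 14.1% of all genes, had more peaks in BM4, BM7 and BM8 than in every WT library. Per 10000 peaks there were 2, against 3.94%. The count was 2 with the 5 kb window, 7 with the 50 kb window and 0 with the 50000 highest-scoring peaks. The share of all genes is not given for these windows and this cut, so their counts cannot be compared with it. Of the regions with a peak in at least 3 Lats1-CKO and no WT libraries, 1 was counted with the 50000 highest-scoring peaks, the Nuak2 region past the 3′ end, and 1 with the 10000 highest-scoring peaks, an intronic region of Amotl1 that is not among the 8.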
